A study of Mus musculus with 6 samples.

Results

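The genes described here are the members of 7 mouse gene families that are known for expression in oocytes, cleavage embryos or the inner cell mass and that lie in arrays of similar copies. They were taken by name, as every gene whose symbol begins with Pramel, Obox, Tdpoz, Zscan4, Usp17l, Trim43 or Tcstv. The rule gave 149 of the 57180 genes in the deposited table: 63 Pramel, 55 Obox, 10 Tdpoz, 10 Zscan4, 6 Usp17l, 3 Trim43 and 2 Tcstv genes. By their symbols, which hold -ps, 58 of them are named as pseudogenes. RNA was sequenced from C57BL/6 mouse embryonic stem (ES) cells, in 3 libraries of Mpp8/Tasor double knockout cells (dKO) and 3 libraries of wild-type cells (WT). The labels name no treatment, and they do not say whether the dKO libraries came from 1 clone or several or the replicates from separate cultures. The p-values therefore measure the spread between these libraries, which may be technical.

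MPP8 and TASOR are subunits of the human silencing hub (HUSH), a complex that keeps LINE-1 elements and some other transcribed DNA silent in chromatin carrying the repressive mark H3K9me3. The 7 families encode several kinds of protein. Pramel genes encode leucine-rich repeat proteins related to human PRAME, Obox genes encode oocyte-specific homeodomain proteins, and Trim43 genes encode RING-type ubiquitin ligases of the cleavage embryo. Tdpoz proteins carry TRAF and POZ domains, Usp17l genes encode deubiquitinating enzymes, and Zscan4 and Tcstv genes are transcripts of the 2-cell embryo that also mark a rare, transient 2-cell-like state of cultured ES cells.

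Total estimated counts per library were between 18881728 and 20128374 in dKO and between 18384804 and 24910541 in WT. Mphosph8, which encodes MPP8, had 1, 4 and 3 counts in the dKO libraries, against 2159, 3597 and 2173 in the WT libraries. Tasor had 180, 196 and 204 counts in dKO, against 2631, 4932 and 2567 in WT. Of 15714 genes with enough counts for a test, 5391 (34.3%) were called by edgeR's quasi-likelihood test at a Benjamini-Hochberg adjusted p under 0.05. Higher in dKO were 2578 genes (16.4%) and lower were 2813 (17.9%). Without dKO replicate 1 the test called 3586 genes. On chromosome 14, which carries both targeted genes, 370 of 525 tested genes (70.5%) were called lower, and none of the 147 family genes with a known chromosome lies on chromosome 14 or Y. The ES cell marker genes Pou5f1, Sox2, Nanog and 5 others of 10 were not called, and Fgf4 and Tdgf1 were lower in dKO. Markers of oocytes summed to between 13.99 and 15.1 CPM (counts scaled by library size) in dKO libraries and between 14.9 and 21.5 CPM in WT libraries, nearly all from Zp3.

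Most of the 149 genes were silent or nearly so in both genotypes. No counts at all were found for 85 of them in any library, 44 had 1 to 9 counts over the 6 libraries, 8 had 10 or more counts but stayed below the filter for testing, and 12 were tested. Of the 12, 8 were called higher in dKO, beside 16.4% of all tested genes, 4 were not called and 0 were called lower (0 lower also at an unadjusted p under 0.05, and 0 by DESeq2). All of the 8 but Obox6 passed the filter only through their dKO libraries and so had to differ between the genotypes to be tested at all, and nothing is read from the number of calls. In 8 of the 12 every dKO library lay above every WT library, as in 24.2% of tested genes. In bulk RNA, a few cells with much of a transcript and many cells with little of it cannot be told apart.

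The family sums, which do not depend on how reads were divided among the named copies of 1 family, gave different pictures for the 7 families. Reads can still be divided with similar genes outside the name rule, which the sums leave out. Of the 50-base stretches of Tdpoz3, 66.2% occur in Gm4982. For Tdpoz6, 68.9% occur in any other gene and 63.6% in other members. The summed Obox, Trim43 and Tdpoz signal was many times higher in dKO cells with no overlap between libraries, while the Pramel sum had a ratio of 1.10. No test was made on these sums. Obox genes summed to 22.5, 21.2 and 22.0 CPM in the dKO libraries and 2.09, 3.26 and 4.22 CPM in the WT libraries, a ratio of means of 6.86. Trim43 genes summed to 8.95, 9.81 and 9.72 CPM in dKO and 0.331, 0.490 and 0.165 CPM in WT, a ratio of 28.9. Tdpoz genes summed to 3.34, 4.44 and 3.84 CPM in dKO and 0.276, 0.204 and 0.219 CPM in WT, a ratio of 16.6. Each of these families was carried by 1 gene or a pair: Obox6 held 97.1% of the dKO and 97.9% of the WT Obox counts, and Tdpoz6 held 91.7% of the dKO and 92.9% of the WT Tdpoz counts. Trim43a held 75.7% of the dKO Trim43 counts (exact 95% binomial interval 71.9% to 79.2%), against 28.6% of 21 WT counts (11.3% to 52.2%). Such intervals cover counting error only.

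The Pramel family summed to 116, 120 and 121 CPM in dKO and 103, 113 and 107 CPM in WT, so that the genotypes did not overlap although the ratio was only 1.10. Pramel12 and Pramel13, both on chromosome 4, held most of the counts in both genotypes. Without them, a sum added after the data were seen, the remaining 61 Pramel genes came to 25.0 ± 1.37 CPM in dKO and 8.30 ± 1.85 CPM in WT (SD, n = 3 each), a ratio of 3.01.

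**Figure D1:**
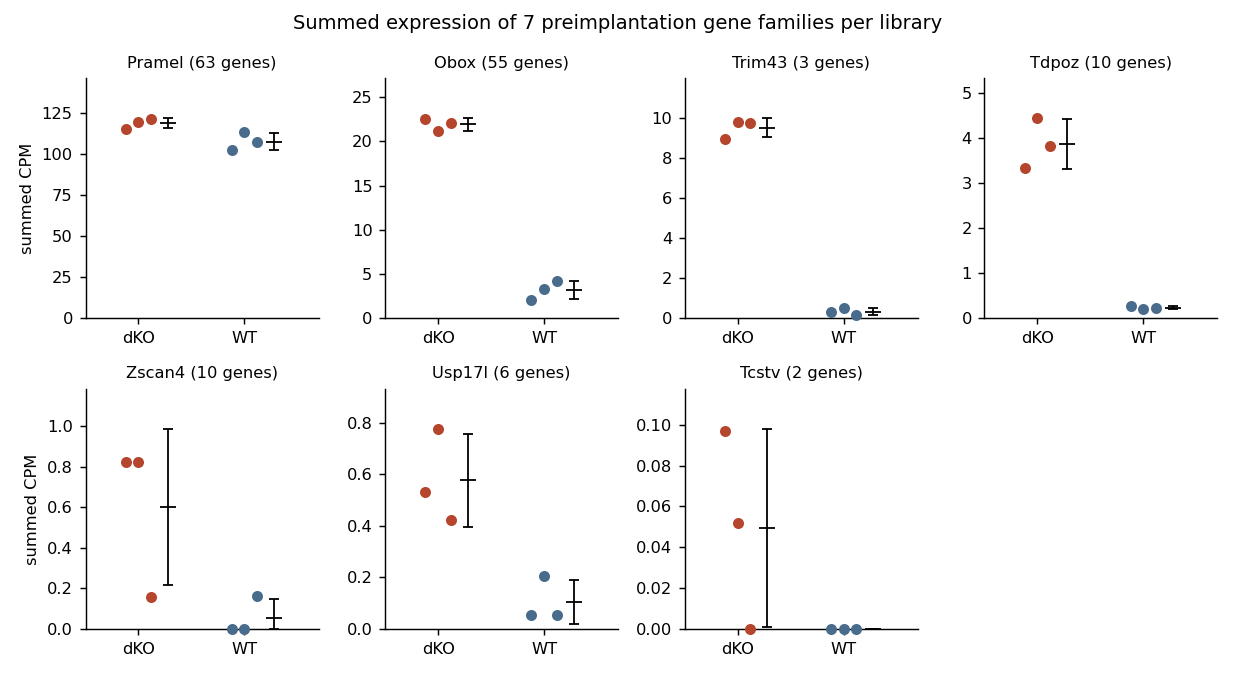
Summed CPM of each family (vertical axis, from 0, 1 scale per panel) in the 3 dKO libraries (red, left) and the 3 WT libraries (blue, right), with the mean and SD as a bar beside the points. The dKO libraries lie above the WT libraries for Pramel, Obox, Trim43, Tdpoz and Usp17l, and the genotypes overlap for Zscan4 and Tcstv.

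Split by chromosome, the Pramel family fell into groups that behaved differently. The 2 genes on chromosome 2 and the 5 on chromosome X were near 0 in WT and clearly present in dKO, the 26 genes on chromosome 4 were together at about the same level in both genotypes, and the 27 genes on chromosome 5 were almost silent in both. The remaining 3 genes, 1 on chromosome 12 and 2 with no chromosome in the annotation used, had 2 counts in all.

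On chromosome 2 lie Pramel6 and Pramel7. PRAMEL7 is known from the inner cell mass, where it works with the CUL2 ubiquitin ligase to lower UHRF1, the protein that guides maintenance DNA methylation. Pramel6 (ENSMUSG00000025838) had 5.27, 6.30 and 6.94 CPM in dKO, against 0.165, 0.163 and 0.274 CPM in WT. Pramel7 (ENSMUSG00000025839) had 3.05, 2.43 and 3.47 CPM in dKO, against 0.165, 0.286 and 0.165 CPM in WT. For both genes the lowest dKO library was far above the highest WT library. Pramel6 rose by 4.92 on the log2 scale (SE 0.300, edgeR adjusted p = 4.84e-06) and Pramel7 by 3.78 (SE 0.364, edgeR adjusted p = 6.98e-05). Their transcripts share almost no sequence with other genes: 0.0% of the 50-base stretches of Pramel6 and 1.4% of those of Pramel7 occur in the transcript of another gene, so their reads could be told apart.

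The X-linked group is Pramel3a to Pramel3e. Together they had 8.75, 9.81 and 8.36 CPM in dKO, against 0.110, 0.163 and 0.110 CPM in WT. Over the pooled counts, 530 in dKO and 8 in WT, the ratio was 68.3 with a counting interval of 34.4 to 159. The dKO libraries differed little from each other in this sum, with a coefficient of variation of 8.38%. For the single copies the picture was less even. Pramel3c (ENSMUSG00000094004) had 115, 31 and 47 counts in dKO, or 5.56, 1.6 and 2.47 CPM, and 0 counts in every WT library, while Pramel3b (ENSMUSG00000096508) had 0, 90 and 56 counts in dKO and 0 in every WT library. The copy with the counts thus changed from library to library, and Pramel3b was at 0 in the dKO library where Pramel3c was highest. Their sum was 5.56, 6.25 and 5.41 CPM in dKO, with a coefficient of variation of 7.76%, against 64.8% for Pramel3c alone. All of the 50-base stretches of Pramel3b (100%) occur in Pramel3c, and 95.7% of those of Pramel3c occur in Pramel3b, so estimated counts cannot say with certainty which of them was transcribed.

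Pramel3c was called higher (edgeR adjusted p = 0.00119), and the counts assigned to it were 65.2-fold higher in dKO, taken against 3 counts over the 3 WT libraries together. Its fitted log2 change of 9.01 depends on the small count that edgeR adds, and is no bound. The counts assigned to Pramel3b were 51.3-fold higher on the same footing. As the reads of Pramel3b and Pramel3c cannot be told apart, neither fold is a bound for a single copy. Pramel3b did not pass the filter, because of its 0 in dKO replicate 1. Without that library it passed the filter through its dKO counts alone and was called (log2 9.24, edgeR adjusted p = 0.000433). Nothing is read from that call, because the library left out was the dKO library where Pramel3b was at 0. The log2 change of 9.24 is no bound either, as WT was at 0. In the authors' deposited table Pramel3b has a log2 change of 8.12 with an adjusted p of 0.110. Pramel3e (ENSMUSG00000054994) had 3.0, 3.56 and 2.68 CPM in dKO, against 0.110, 0.163 and 0.0549 CPM in WT, and rose by 4.68 on the log2 scale (SE 0.401, edgeR adjusted p = 3.53e-05). It shares 95.9% of its stretches with Pramel3d, to which 6 dKO counts and 1 WT count were assigned. Of all 553 tested X-linked genes, 89 (16.1%) were called higher.

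**Figure D2:**
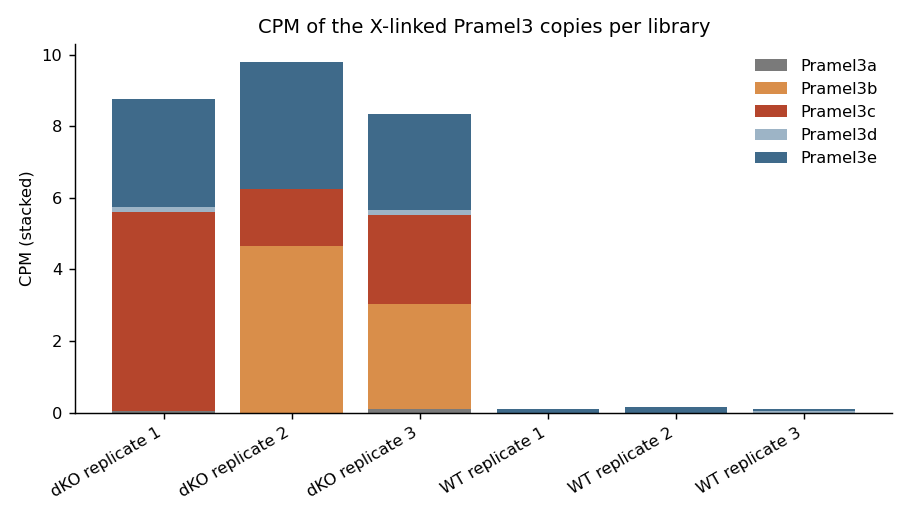
Stacked CPM of the 5 X-linked Pramel3 copies (vertical axis, from 0) in each of the 3 dKO libraries (left) and the 3 WT libraries (right), 1 colour per copy. The height of the whole column is similar in the 3 dKO libraries, between 8.36 and 9.81 CPM, while Pramel3b and Pramel3c take different parts of it, and the WT columns are at 0.163 CPM or below.

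The genes on chromosome 4, which lie in more than 1 place along it, included those that WT cells already expressed. The 26 genes summed to 98.5, 101 and 102 CPM in dKO, against 102, 113 and 107 CPM in WT, with the genotypes just overlapping, and none of the 4 tested genes among them was called. Pramel12 (ENSMUSG00000046862) had 42.7, 43.3 and 46.5 CPM in dKO, against 39.2, 45.6 and 41.8 CPM in WT, with a log2 change of 0.06 (SE 0.102, edgeR adjusted p = 0.665). Pramel13 (ENSMUSG00000028591) had 49.1, 49.9 and 50.2 CPM in dKO, against 55.4, 57.3 and 58.9 CPM in WT. All dKO libraries of Pramel13 lay below all WT libraries, as in 25.0% of tested genes, with a log2 change of -0.20 (SE 0.0893) that missed the threshold (edgeR adjusted p = 0.113). Pramel1 had 5.13, 5.99 and 4.52 CPM in dKO, against 6.61, 8.49 and 4.99 CPM in WT (log2 -0.37, SE 0.220, edgeR adjusted p = 0.229). Pramel30 had 1.31, 1.08 and 0.788 CPM in dKO, against 0.606, 1.10 and 1.10 CPM in WT (log2 0.17, SE 0.373, edgeR adjusted p = 0.757). For Pramel1 and Pramel30 the genotypes overlapped. Pramel30 shares 73.8% of its stretches with Pramel14, to which no counts were assigned, while Pramel1, Pramel12 and Pramel13 share none with another gene.

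The other 22 genes of chromosome 4 included 15 at 0 and 7 with between 1 and 8 counts over all libraries. On chromosome 5, 10 of 27 genes had counts, 18 in all, and every one of them came from a dKO library: 1, 7 and 10 counts per dKO library and 0 in each WT library. Many of these chromosome 5 copies share most of their sequence, such as Pramel53 and Pramel54, at 100% each, so that only the sum over the group can be read.

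The 250 bases upstream of the annotated start are shown for 4 risers and for 2 uncalled genes of chromosome 4, to show how related they are and how many CpG dinucleotides they hold. The sequences are RefSeq's on build GRCm38.p6, which is not the build named in the submitters' processing notes, and CpG dinucleotides are in capitals. Pramel3c, listed in RefSeq as Gm5128, is taken from chrX:135373034-135373283 on the plus strand, and Pramel3e, listed as AV320801, from chrX:135494338-135494587 on the plus strand. Pramel6 is from chr2:87506315-87506564 (plus) and Pramel7 from chr2:87492419-87492668 (minus). The uncalled Pramel30 is from chr4:144329999-144330248 (plus) and Pramel1 from chr4:143394191-143394440 (plus).
Pramel3c: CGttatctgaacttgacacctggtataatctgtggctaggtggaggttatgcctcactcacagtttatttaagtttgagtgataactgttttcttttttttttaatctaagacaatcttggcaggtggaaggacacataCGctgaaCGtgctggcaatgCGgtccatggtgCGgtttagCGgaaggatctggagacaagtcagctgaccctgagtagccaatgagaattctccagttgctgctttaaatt
Pramel3e: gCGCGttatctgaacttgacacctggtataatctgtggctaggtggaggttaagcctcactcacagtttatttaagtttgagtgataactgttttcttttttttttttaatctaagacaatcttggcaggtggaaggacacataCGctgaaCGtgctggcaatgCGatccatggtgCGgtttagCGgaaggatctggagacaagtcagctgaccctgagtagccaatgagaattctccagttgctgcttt
Pramel6: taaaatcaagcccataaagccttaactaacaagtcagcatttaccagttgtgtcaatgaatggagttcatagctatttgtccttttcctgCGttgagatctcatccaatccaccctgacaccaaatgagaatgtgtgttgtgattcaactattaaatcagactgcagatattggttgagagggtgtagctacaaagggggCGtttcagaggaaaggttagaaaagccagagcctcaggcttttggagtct
Pramel7: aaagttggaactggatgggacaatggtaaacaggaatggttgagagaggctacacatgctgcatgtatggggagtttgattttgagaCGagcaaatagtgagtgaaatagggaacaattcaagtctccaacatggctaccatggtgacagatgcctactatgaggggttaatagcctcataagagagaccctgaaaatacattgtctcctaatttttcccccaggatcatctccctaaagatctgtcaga
Pramel30: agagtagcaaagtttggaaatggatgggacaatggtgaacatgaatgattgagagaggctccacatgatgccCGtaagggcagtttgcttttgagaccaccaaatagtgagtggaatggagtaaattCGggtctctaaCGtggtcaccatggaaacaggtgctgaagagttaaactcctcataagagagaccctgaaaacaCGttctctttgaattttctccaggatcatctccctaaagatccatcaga
Pramel1: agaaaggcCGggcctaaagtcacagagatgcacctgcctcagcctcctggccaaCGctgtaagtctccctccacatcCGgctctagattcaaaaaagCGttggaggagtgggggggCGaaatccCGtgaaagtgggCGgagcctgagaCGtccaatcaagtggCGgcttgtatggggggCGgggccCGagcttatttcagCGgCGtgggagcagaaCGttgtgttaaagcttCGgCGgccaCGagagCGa

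The windows of Pramel3b and Pramel3c were identical (100%), and those of Pramel3c and Pramel3e matched at 95.3% of aligned positions. Pramel7, which rose, was closer to Pramel30 of chromosome 4, which was not called, with 77.6% identity, than to its neighbour Pramel6, with 45.5%. Pramel3c and Pramel3e, with similar windows, were both called. However, 45.5% of the 50-base stretches of the Pramel3c transcript occur in Pramel3e, and both genes passed the filter only through dKO. Nothing is therefore read from setting the 2 pairs side by side. Whether upstream sequence plays a part was not tested. Pramel1 had 18 CpG dinucleotides in its window, an observed over expected ratio of 0.83, against 0.18 for Pramel6 (2 CpG) and 0.09 for Pramel7 (1 CpG). Pramel3c (0.52), Pramel3e (0.58), Pramel13 (0.44) and Pramel30 (0.34) lay between them, and the median of 32851 mouse promoters was 0.37. Trim43a, the only riser outside the Pramel family with an entry, had a ratio of 0.10. With 8 tested members in the table, this is a description of these windows.

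Motifs were searched on both strands: TATAAA (core promoter box, in 12.37% of all promoter windows), CACGTG (E-box, 6.02%), GCGGGA (E2F type, 16.9%), TAATCC (bicoid-type homeodomain, 6.25%), TGCACAC (ZSCAN4 type, 3.67%) and a DUX-type motif of paired half-sites (0.03%). None of the 8 windows of tested members, Pramel1, Pramel3c, Pramel3e, Pramel6, Pramel7, Pramel13, Pramel30 and Trim43a, held any of these letter strings. Of the 61 members with an entry, 26 held at least 1. Pramel12, Obox6, Trim43b and Tdpoz6 were not matched.

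Outside the Pramel family, Obox6 had the highest level per transcript length of all risers. Obox6 (ENSMUSG00000041583, chromosome 7), a homeobox gene expressed in the preimplantation embryo, had 21.8, 20.3 and 21.7 CPM in dKO, against 2.09, 3.10 and 4.22 CPM in WT. It rose by 2.76 on the log2 scale (SE 0.217, edgeR adjusted p = 2.11e-05). It was the only riser that WT cells expressed well enough to pass the filter on their own, and it shares 5.0% of its stretches with a pseudogene. The other 54 Obox genes came to 38 counts in dKO and 4 in WT, and 43 of the 55 Obox genes, most of them pseudogenes of Obox4, were at 0 throughout. Obox4-ps28 (2, 9 and 0 counts in dKO) and Obox4-ps20 (10, 0 and 0 counts in dKO), both at 0 in WT, share 100% of their stretches with other Obox4 copies.

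Trim43a and Trim43b lie near each other on chromosome 9. Trim43a (ENSMUSG00000090693) had 6.77, 7.28 and 7.51 CPM in dKO, against 0.220, 0.0816 and 0 CPM in WT. It rose by 6.10 on the log2 scale (SE 0.440, edgeR adjusted p = 1.26e-05), and by 7.10 without WT replicate 1. Trim43b (ENSMUSG00000079162) had 1.98, 2.43 and 2.05 CPM in dKO, against 0, 0.245 and 0.110 CPM in WT, and rose by 4.0 (SE 0.572, edgeR adjusted p = 0.000741), and by 5.13 without WT replicate 2. The remaining copy, Trim43c, had 4, 2 and 3 counts in dKO and 2, 4 and 1 counts in WT, which is too few for a test. The copies share part of their sequence: 38.3% of the stretches of Trim43a occur in Trim43b, so the division of reads between the pair is uncertain, which the sum over the family does not depend on.

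Tdpoz6 (ENSMUSG00000103350, chromosome 3) had 3.05, 3.98 and 3.63 CPM in dKO, against 0.276, 0.163 and 0.219 CPM in WT. It rose by 4.01 on the log2 scale (SE 0.330, edgeR adjusted p = 2.83e-05), and 63.6% of its stretches also occur in Tdpoz5, to which 1 count was assigned. Tdpoz1 had 2, 8 and 3 counts in dKO and 0, 1 and 0 in WT. Tdpoz6 is annotated with a single exon, as are 5.52% of 13750 tested protein-coding genes. The other 7 risers have between 3 and 7 exons, against a median of 8.

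**Figure D3:**
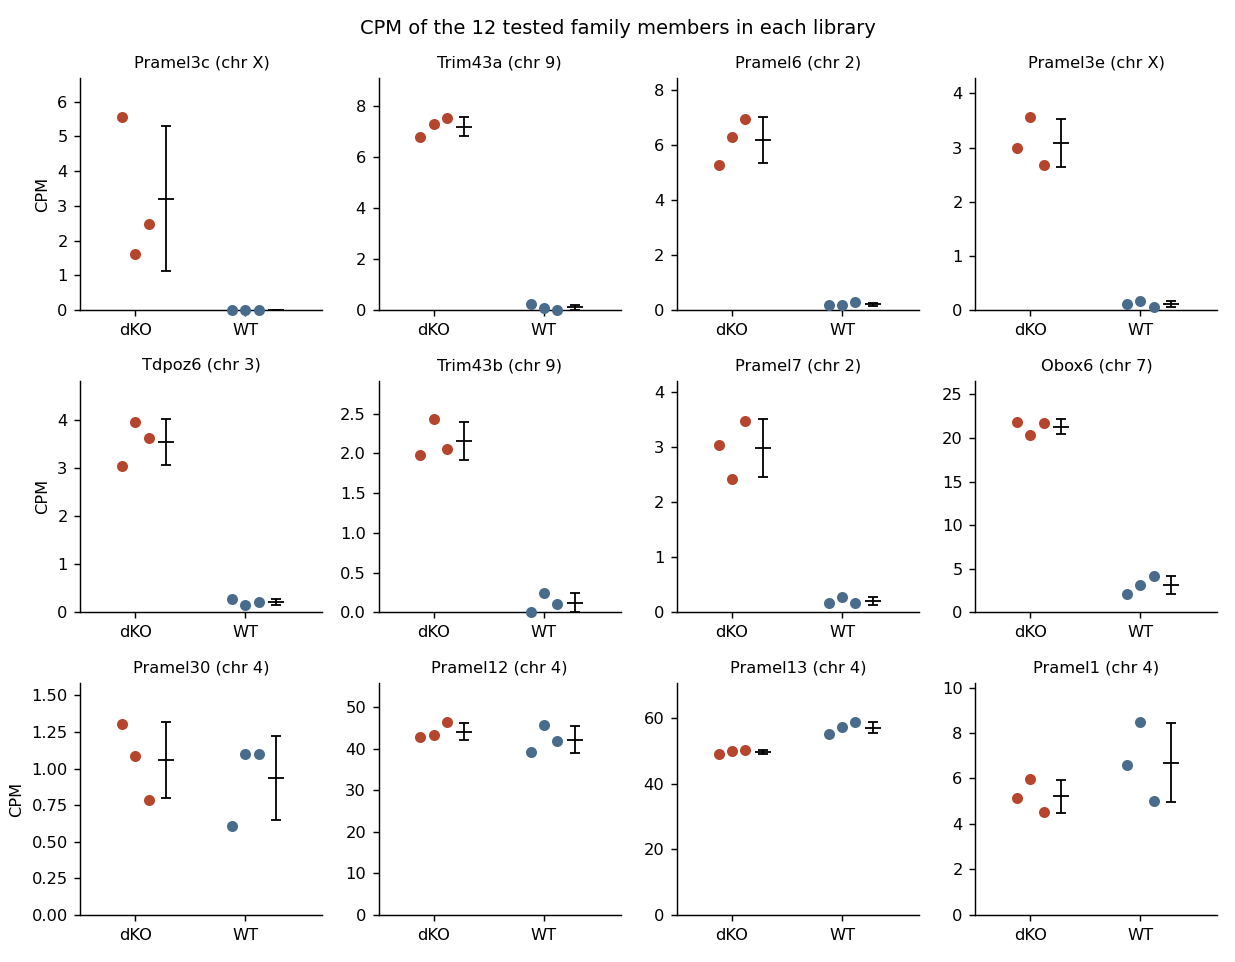
CPM (vertical axis, from 0, 1 scale per panel) of the 12 tested members in the 3 dKO libraries (red, left) and the 3 WT libraries (blue, right), with mean and SD beside the points. The first 8 panels, Pramel3c to Obox6, show no overlap between genotypes, and in the 4 panels of chromosome 4 genes only Pramel13 has all dKO libraries below all WT libraries.

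Obox6, the only riser that passed the filter through both genotypes, was rank 213 of the 15714 tested genes by log2 change. No rank is given for the other risers, which could be tested only because their dKO levels were far above their WT levels. The median log2 change was 0.86 over the 2578 genes called higher and -0.016 over all tested genes. The levels reached were modest. Obox6 averaged 30.8 ± 2.30 TPM (a scale that divides by transcript length) in dKO and 4.33 ± 1.21 TPM in WT (SD, n = 3 each), which placed it above 68.4% of tested genes in dKO and 31.6% in WT. Pramel6 averaged 16.1 ± 0.634 TPM in dKO and 0.707 ± 0.258 TPM in WT. Trim43a, Tdpoz6 and Pramel7 averaged between 5.64 and 6.90 TPM in dKO and below 0.4 TPM in WT. Pramel13, which was not called, averaged 37.5 ± 4.58 TPM in dKO and 42.3 ± 8.30 TPM in WT, so the risers stayed below the Pramel gene that both genotypes expressed most.

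**Figure D4:**
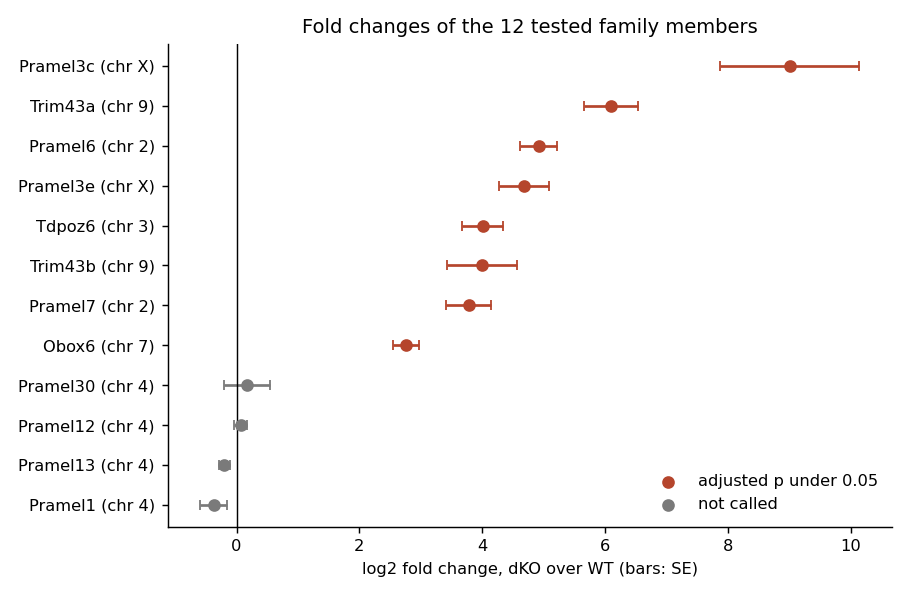
Log2 fold change of dKO over WT (horizontal axis) for the 12 tested members, with bars of 1 SE, red where the adjusted p was under 0.05. The 8 called members lie between 2.76 and 9.01, and the 4 genes of chromosome 4 lie between -0.37 and 0.17.

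The Zscan4 and Tcstv genes, which mark the 2-cell-like state, stayed at or near the limit of detection. The 10 Zscan4 genes had 17, 16 and 3 counts in the dKO libraries, against 0, 0 and 3 in the WT libraries, so that dKO replicate 3 had the same count as WT replicate 3. Over the pooled counts the ratio was 12.4, with a counting interval of 3.91 to 62.8. The ratio of means was 10.97 in CPM and 31.8 in TPM, and in CPM it ran from 7.31 to 15.0 on leaving out a library and was 6.11 without Zscan4e. All 3 WT counts were those of Zscan4-ps2, and the 6 genes that are not pseudogenes had 12, 16 and 2 counts in dKO and 0 in WT. Zscan4e had the most, with 8, 8 and 0 counts in dKO and 0 in WT, and 89.0% of its stretches occur in other genes. Tcstv1 had 2, 1 and 0 counts in dKO and 0 in WT, and Tcstv3 had none. With 3 counts as the limit that a count of 0 allows, WT levels up to 0.122 to 0.165 CPM per library could have been missed.

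The Usp17l genes were also too low to test. They summed to 11, 15 and 8 counts in dKO, against 1, 5 and 1 in WT, a ratio of mean CPM of 5.50 that was 10.5 without WT replicate 2 and 3.06 without Usp17le. The ratio of pooled counts was 5.01, with a counting interval of 2.18 to 13.4. Usp17le had 4, 7 and 4 counts in dKO and 0 in WT. Taken against 3 counts over the WT libraries together it was 5.18-fold higher, a value that leaves out the counting error in dKO. Usp17la had 2, 2 and 3 counts in dKO and 1, 3 and 0 in WT. With no filter on low counts, Usp17le (edgeR adjusted p = 0.0166) and Zscan4e (edgeR adjusted p = 0.0153) were called higher. That made 10 calls among 64 members, beside 2899 of 28689 genes called higher at that setting. Nothing is read from this number of calls. In the authors' deposited table the adjusted p was 0.0306 for Usp17le and 0.062 for Zscan4e.

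Counts of the 137 untested members leaned the same way. Of 52 with any counts, 40 had them only in dKO libraries, 1 only in WT libraries and 11 in both, with 329 counts in dKO and 31 in WT (183 and 31 without Pramel3b). Among the 12923 other untested genes with counts, 2977 (23.0%) had them only in dKO and 2197 (17.0%) only in WT. Many of these members share reads by sequence, so 1 fragment can put a count on any of several copies, and the members are not independent of each other.

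The tested genes next to the risers did not move with them in general. Of 34 neighbours, taken as the 3 nearest tested genes outside the families on each side, 8 were called higher, beside 16.4% of all tested genes, 5 lower and 21 not called. Beside Obox6, the homeobox gene Crxos had 7.85 CPM in dKO and 1.94 CPM in WT on average (log2 2.02, edgeR adjusted p = 0.000244). Between Trim43a and Trim43b, Mthfsl had 2.53 CPM in dKO and 0.310 CPM in WT (log2 2.99, edgeR adjusted p = 0.00191). By Pramel6 and Pramel7, the olfactory receptor gene Or4a74 had 24.5 CPM in dKO and 6.82 CPM in WT (log2 1.84, edgeR adjusted p = 5.98e-05). Next to Tdpoz6 the 3 genes before it in the annotation, Tchh, S100a11 and S100a10, were lower in dKO, by log2 changes between -1.12 and -0.94. These neighbours were singled out after their values were seen.

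Related genes outside the families were described from lists. Of 9 tested activators of the 2-cell-like state, 3 were higher, 2 lower and 4 not called, with a median log2 change of 0.05 (all tested genes: 16.4% higher, 17.9% lower, median -0.016). Rarg, the retinoic acid receptor gamma gene, was higher by 1.10 and Dppa2, a chromatin factor upstream of Dux, by 0.44, while Gata3, a transcription factor gene of trophoblast, was lower (log2 -3.10). Nelfa (log2 0.40) was higher and Yap1 (log2 -0.31) lower. Duxf3, the Dux gene that switches on many 2-cell transcripts, had 1, 0 and 2 counts in dKO and 0, 0 and 1 in WT. Of 9 tested other transcripts of that state, 5 were higher, 3 lower and 1 not called (median 0.61), beside the same 16.4% and 17.9% of all tested genes. Rnf213 rose by 0.70, and Cphx1, on chromosome 14 (log2 -3.78), Calcoco2 (log2 -1.16) and P4ha2 (log2 -0.73) fell. Sp110 rose by 3.02, with 11, 11 and 12 counts in dKO and 1, 2 and 1 in WT. It passed the filter only through dKO, so nothing is read from its call. Some genes of the other lists also passed through 1 genotype only, and the counts per list include them. Of 12 tested oocyte and cleavage genes outside the 7 families, 3 were higher, 5 lower and 4 not called (median -0.78), beside 16.4% higher and 17.9% lower of all tested genes. Nlrp4c, an NLR-family gene of oocytes, had 17.5 ± 2.67 CPM in dKO and 1.58 ± 0.0870 CPM in WT (SD, n = 3 each; log2 3.46), whereas its relative Nlrp4f fell by 1.41 and Khdc3, a gene of the subcortical maternal complex, fell by 2.34. Crxos, given above, was also in this list, and Duxbl1, on chromosome 14, fell by 1.15.

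Of 30 repressors of the 2-cell-like state and of germline-type genes, 5 were higher, 9 lower and 16 not called (median -0.09), beside 16.4% higher and 17.9% lower of all tested genes. Chaf1b, a subunit gene of the chromatin assembly factor CAF-1, rose by 0.94, the DNA methyltransferase gene Dnmt3a by 0.62 and L3mbtl2 by 0.54, and Smchd1 (log2 -1.03) and Zmym2, on chromosome 14 (log2 -1.04), fell. The last list held the partners and substrate of the PRAMEL7 ligase. None of the 6 genes, Uhrf1, Cul2, Elob, Eloc, Rbx1 and Dnmt1, was called by edgeR (2 at an unadjusted p under 0.05, both lower, and 1 lower by DESeq2). Uhrf1 had 493 ± 6.56 CPM in dKO and 582 ± 46.0 CPM in WT (SD, n = 3 each; log2 -0.24, edgeR adjusted p = 0.0603). UHRF1 protein was not measured.

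**Figure D5:**
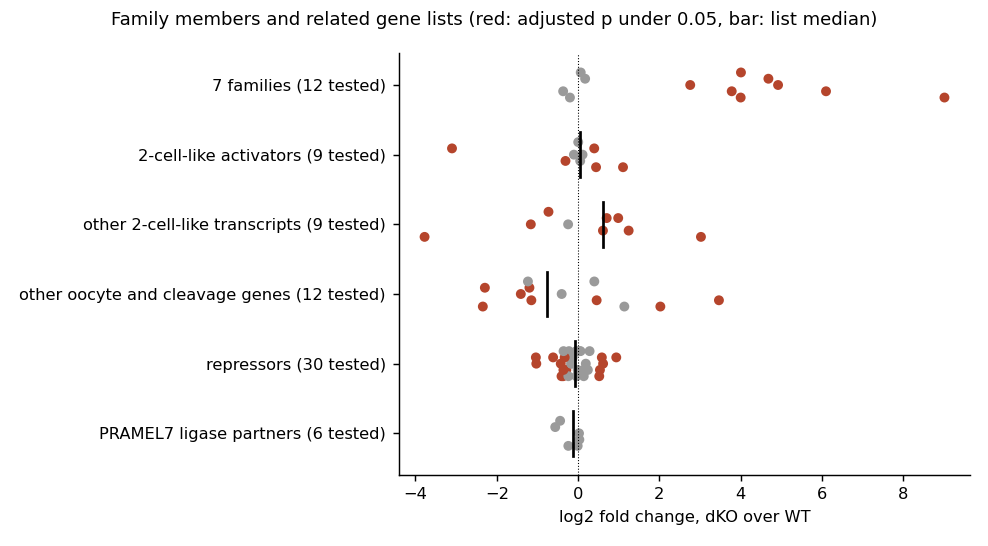
Log2 fold change of dKO over WT (horizontal axis) for the tested members of the 7 families and of 5 related gene lists, 1 point per gene, red where the adjusted p was under 0.05, with a black bar at each list's median. The family members show as 8 points at 2.76 or above and 4 near 0, and the lists lie on both sides of 0. All of the 8 but Obox6 passed the filter only through dKO, so nothing is read from this contrast.

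Some markers of other cell types differed between the genotypes as well, beside 16.4% higher and 17.9% lower of all tested genes. All 6 tested trophoblast markers of 7 were lower in dKO, and the list summed to between 51.6 and 57.1 CPM in dKO libraries and between 288 and 416 CPM in WT libraries. Of 6 tested fibroblast feeder markers of 8, Col1a2 and Dcn were higher and 4 were not called, with sums between 43.7 and 47.1 CPM in dKO and between 29.8 and 40.4 CPM in WT. Of 5 tested markers of primitive endoderm, 1 was higher, 2 lower and 2 not called. The sums were between 7.44 and 7.59 CPM in dKO and between 7.0 and 8.94 CPM in WT. Both lower markers, Gata4 and Sox7, lie on chromosome 14, where 70.5% of tested genes were called lower. Dcn passed the filter only through dKO, and Sox7 and the trophoblast marker Elf5 only through WT, so nothing is read from these calls. No marker of these lists was at 0 in every library. The part of these differences in the family results was not tested.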

How the data were processed

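RNA of mouse ES cells was sequenced in 3 dKO and 3 WT libraries made with an Illumina TruSeq kit, per the labels' protocols. Tools listed in the submitters' processing notes are HISAT2 2.1.0, RSEM, FastQC and DESeq 1.26.0, with build GRCm39. The sources used here do not give whether polyadenylated RNA was selected or strand was counted. Per the file headers, the authors deposited expected counts, which are estimated reads per gene, with TPM per library and per genotype, and a gene length. The deposited comparison of dKO with WT holds a fold (ratio) and log2 ratio with raw and adjusted p-values per gene, and a value from it is named as such. TPM was used for levels only.

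Estimated counts were rounded to whole numbers and tested with edgeR 4.0.16 in R 4.3.3 (filterByExpr, TMM scaling, robust quasi-likelihood fit on genotype, Benjamini-Hochberg adjustment over the 15714 tested genes). Log2 changes compare dKO with WT, and their SE is the change over the root of F. CPM was scaled by the TMM factors. The families, lists, tests and alternatives were chosen with earlier results of these data known. Every tested member is named, then untested members with 10 or more counts, and up to 5 genes of smallest p per list. Chromosomes, exons and shared 50-base stretches came from GENCODE M21 (147 of 149 members matched) and promoter windows from RefSeq (GRCm38.p6), neither on the authors' build. Alternatives included DESeq2 1.42.0, library totals, no filter, unrounded counts and leaving out each library.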

Additional observations from a re-analysis of the deposited data

How the results depend on the processing

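All 8 calls and all 4 members not called stayed on their side of the threshold in the 12 alternatives, with the direction unchanged except for Pramel30, whose uncalled log2 change was -0.0019 without dKO replicate 1 and -0.043 without WT replicate 1 (-0.043 to 0.346 over the fits that leave out a library). These fits reuse the same libraries, and all of the 8 but Obox6 passed the filter only through dKO. The stability of those calls is therefore no further support for them. Called higher were 8 members in each alternative except 10 with no low-count filter and 9 without dKO replicate 1 (8 to 9 over the 6 fits that leave out a library), and called lower were 0 to 0. All genes called ranged from 3586 to 6828 over those fits, and 6794 were called with the replicate number as a block, which moved no member's call. Deviations from the genotype means correlated at -0.076, 0.273 and 0.329 between same-numbered libraries, and at -0.406 to 0.215 between differently numbered ones. These values do not settle whether the numbers are pairs. No pairing is named in the labels, so the numbers were not taken as pairs. Leaving out each library, the ratio of the family sums ranged from 5.85 to 8.18 for Obox, 1.08 to 1.13 for Pramel, 15.4 to 18.3 for Tdpoz, 23.1 to 38.3 for Trim43, 4.44 to 10.5 for Usp17l (highest without WT replicate 2) and 7.31 to 15.0 for Zscan4, which has no ratio without WT replicate 3. In TPM the ratio was 1.36 for Pramel and 31.8 for Zscan4. Without its highest member it was 1.37 for Pramel, 23.7 for Tdpoz, 10.1 for Trim43, 11.8 for Obox, 3.06 for Usp17l and 6.11 for Zscan4, and without Pramel12 and Pramel13, chosen after seeing the data, 3.01 for Pramel. The cause was not tested. Trim43a rose by 5.60 to 7.10 and Trim43b by 3.51 to 5.13 on the log2 scale over the alternatives. Depth limits the Zscan4, Tcstv and Usp17l values, and shared sequence limits the value of a single Pramel3, Trim43, Tdpoz or Zscan4 copy.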
